A study of Homo sapiens with 18 samples.

Results

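A375 melanoma cells given IMD-0354 at 0.32 µM for 24 h were compared with untreated A375 cells of the same time point, across every gene expressed above a low floor. A375 is an established human cutaneous melanoma line that carries an activated BRAF kinase, and IMD-0354 is a small molecule developed as an inhibitor of the kinase IKKβ. The comparison used 3 libraries of cells given 0.32 µM and 3 libraries of untreated cells, 6 of the 18 libraries of the series, and 14936 of 60504 gene identifiers reached 1 TPM (transcript abundance scaled to a fixed library total) in at least 3 of the 18. In the other 24 h groups the same line received 0.63 or 1.25 µM, with 3 libraries each, so 0.32 µM was the lowest dose. Cells were plated and grown overnight before compound was added, and RNA was read from the 3' end of each transcript. TPM holds no record of how many reads a library had, so sequencing depth is unknown. No vehicle is recorded for the untreated wells. No label says whether libraries of 1 group were separate wells or cultures. The p-values here therefore measure only the spread between libraries, which may be technical. In the gene tests that spread was pooled over all 18 libraries, among them untreated cells and cells given 0.63 µM at 48 h.

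IKKβ, encoded by IKBKB, works in a complex with IKKα (CHUK) and the scaffold NEMO (IKBKG). In resting cells the inhibitors of the IκB family hold NF-κB dimers in the cytoplasm. The kinase complex marks those inhibitors for destruction, and the freed dimers enter the nucleus and switch on chemokine, survival and feedback genes, among them the inhibitors themselves. In melanoma this pathway is known for steady production of chemokines such as CXCL1 and CXCL8.

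To show the kind of site NF-κB is known to bind, the 150 bases before the start of CXCL1, CXCL8 and NFKBIA are printed from RefSeq (GRCh38.p14), each 5′ to 3′ on the strand of the gene. Capitals mark GGAATTTCC, the core of the κB element, or its reverse complement. These 3 were chosen because each carries the motif and each is a classical target whose level is given further on.
CXCL1: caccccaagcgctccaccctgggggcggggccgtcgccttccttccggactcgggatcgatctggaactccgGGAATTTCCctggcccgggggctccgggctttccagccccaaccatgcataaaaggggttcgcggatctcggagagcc
CXCL8: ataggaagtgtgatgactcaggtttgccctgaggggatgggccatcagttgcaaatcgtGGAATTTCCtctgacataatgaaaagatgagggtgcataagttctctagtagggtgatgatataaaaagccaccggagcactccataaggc
NFKBIA: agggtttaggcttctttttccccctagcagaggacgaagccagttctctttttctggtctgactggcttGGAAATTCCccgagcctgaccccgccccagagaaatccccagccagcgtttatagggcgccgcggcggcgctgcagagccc
The CXCL1 window lies at chr4:73869243-73869392 on the plus strand, the CXCL8 window at chr4:73740419-73740568 on the plus strand and the NFKBIA window at chr14:35404750-35404899 on the minus strand. The motif starts 78 bases before the start of CXCL1, 91 before that of CXCL8 and, on the opposite strand, 81 before that of NFKBIA. Searched on both strands, it was present in 0.253% of 35116 such windows. A match describes the letters only and is no measurement of binding in these cells.

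The untreated replicate 2 library stood apart from the other 5. Its correlations with them over all tested genes (Pearson's r of log2(TPM + 1)) ran between 0.897 and 0.916, whereas all other pairs of the 6 reached 0.923 or more. Of 2160 genes with a mean of at least 50 TPM in either group, 205 lay at least 2-fold above the median of the other 5 libraries in it and 205 at least 2-fold below, against at most 32 in either direction in any other library. GAPDH, a glycolytic enzyme often used as a reference, was at 362, 691 and 467 TPM at 0.32 µM, against 25.5 TPM in untreated replicate 2 and 433 and 578 TPM in the other untreated libraries. Where leaving it out turned the sign of a printed list median or fold change at 0.32 µM, or moved it by over 1.5 times, the value without it is given as well. The cell type markers MITF (15.8, 15.5 and 12.2 TPM at 0.32 µM, against 16.6, 13.5 and 16.8 TPM untreated) and SOX10 were present, whereas 12 of 22 melanocyte lineage genes, among them the pigment genes PMEL, TYR, TYRP1 and DCT, fell below the floor. Of 19 markers of fibroblasts, keratinocytes, endothelium and leukocytes, KRT10 alone passed the floor, 10 were at 0 in all 6 libraries and none of the rest exceeded 1.11 TPM.

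At 0.32 µM very few genes passed the test. In simulated data it missed most changes planted at a log2 size of 1 in genes above 5 TPM. With limma on log2(TPM + 1) and Benjamini-Hochberg adjustment over all 14936 genes, 1 gene rose (0.00670%) and 3 fell (0.0201%), 4 in all (0.0268%). Without untreated replicate 2 the count was also 4, of which 3 were shared. It was 1 without 0.32 µM replicate 1, 2 without untreated replicate 3, and 0 with genes at 5 TPM or more in 3 libraries or with the spread taken from these 6 libraries alone. An unadjusted p under 0.05 was reached by 912 genes (6.11%), 442 higher (2.96%) and 470 lower (3.15%), and the 3 treated and 3 untreated values did not overlap for 1296 genes (8.68%), 610 higher (4.08%) and 686 lower (4.59%). The median log2 fold change over all tested genes was 0.00, with 49.2% above 0.

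**Figure D1:**
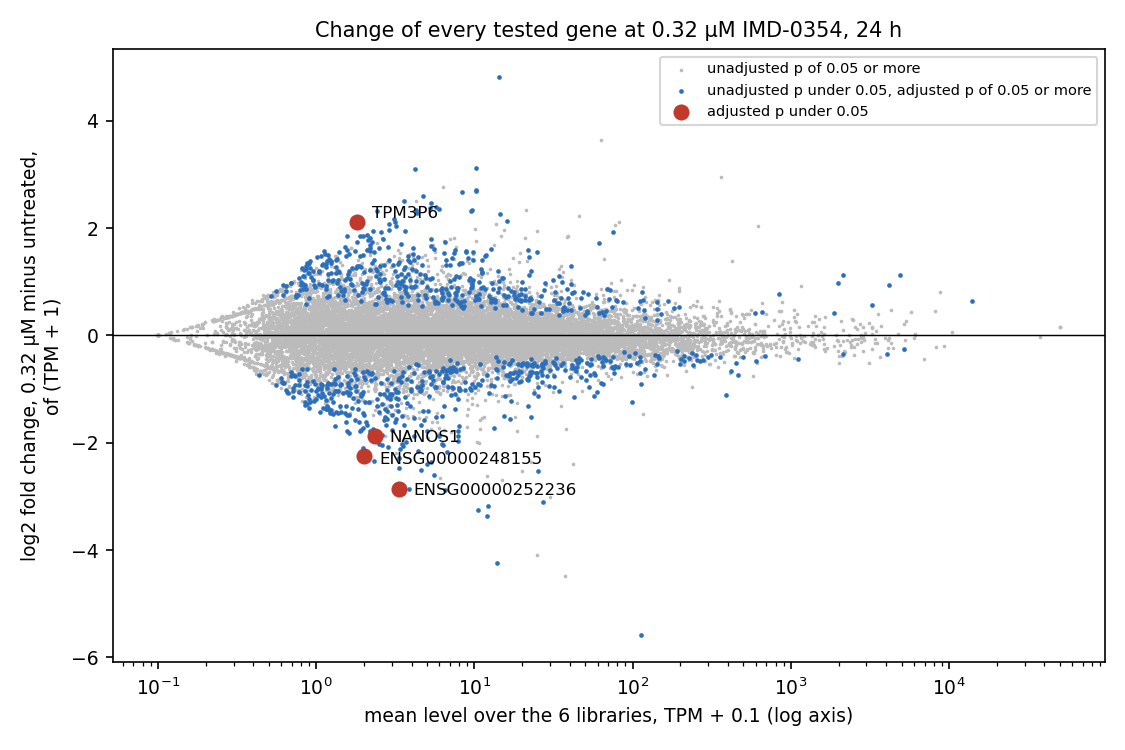
Each point is 1 of 14936 genes, with its mean level over the 6 libraries (TPM + 0.1, log axis) on the horizontal axis and its log2 fold change of (TPM + 1), 0.32 µM minus untreated, on the vertical axis. The 4 genes with an adjusted p under 0.05 (red) all lie at the low end of the levels, and the blue points have an unadjusted p under 0.05 only.

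NANOS1, which encodes an RNA-binding protein known from germ cells, was the 1 protein-coding gene among the 4. It was at 0.14, 0.22 and 0.79 TPM in the cells given 0.32 µM, against 5.72, 2.76 and 3.89 TPM in untreated cells. Every treated library was below every untreated one, and the gene fell by 1.88 on the log2(TPM + 1) scale (SE 0.29, limma adjusted p = 0.0327; 0.0447 without untreated replicate 2). It was also low at the higher doses, with 0.05, 0.12 and 0.49 TPM at 0.63 µM and 0.42, 0.00 and 0.25 TPM at 1.25 µM. GENCODE 29 (GRCh38) places it at chr10:119029716-119033732 on the plus strand, overlapping an exon of EIF3A on the minus strand. Whether the authors' counting used strand is not given in the sources used here, so reads of the 2 genes may not have been told apart. EIF3A itself, a subunit of translation initiation factor 3, was at 262, 214 and 239 TPM at 0.32 µM, against 215, 464 and 171 TPM untreated, and its groups overlapped.

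The other 3 were non-coding. ENSG00000252236, a small nucleolar RNA that GENCODE 29 places at chr1:156192063-156192203 on the minus strand, outside any other gene, was listed at 0 in all 3 libraries given 0.32 µM, against 4.22, 7.13 and 8.05 TPM untreated. It fell by 2.86 on the log2(TPM + 1) scale (SE 0.26, limma adjusted p = 7.9e-05; 0.00132 without untreated replicate 2) and was listed at 0 in every library at 0.63 and 1.25 µM as well. This RNA passed the floor only through the untreated 24 h group, and its SE is pooled over groups with no spread, so the p-value is weak evidence. ENSG00000248155, an unprocessed pseudogene at chr4:2607870-2608146 within introns of FAM193A and RNF4, was likewise listed at 0 in the 3 treated libraries, against 4.17, 4.69 and 2.65 TPM untreated (log2 fold change −2.25, SE 0.30, limma adjusted p = 0.00834; 0.0494 without untreated replicate 2).

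TPM3P6, a processed copy of the tropomyosin gene TPM3, moved the other way. The copy lies at chr19:53479350-53480091, in an intron of ZNF813. It was at 3.55, 2.23 and 4.52 TPM at 0.32 µM and listed at 0 in all 3 untreated libraries and in all 6 libraries at the higher doses. It rose by 2.11 on the log2(TPM + 1) scale (SE 0.30, limma adjusted p = 0.0143), but without untreated replicate 2 the adjusted p was 0.0559. It passed the floor only through the 0.32 µM group, and groups at 0 in every library make its pooled SE small, so the p-value is weak evidence. Reads of such a copy can be split with its parent, which was at 629, 601 and 528 TPM at 0.32 µM, against 565, 917 and 540 TPM untreated, so the value of TPM3P6 is uncertain.

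The 3 non-coding calls also rest on how often the transcripts were listed at 0. TPM3P6 reached 1 TPM in 3 of the 18 libraries, all given 0.32 µM, and ENSG00000252236 in 3, all untreated at 24 h, so each passed the floor only through the group in which it was high. ENSG00000248155 reached it in 4, of which 3 were untreated at 24 h. Of the 6 groups in the model, 4 had TPM3P6 at 0 in every library, 4 had ENSG00000248155 and 5 had ENSG00000252236, and groups with no spread make the pooled SE of these transcripts small. NANOS1 was at 0 throughout in none of the groups and reached 1 TPM in all 6 untreated libraries, those of 48 h included.

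Without overlap, 4.08% of all tested genes were higher and 4.59% lower. Those that also had a symbol and at least 5 TPM in a group were 341 higher and 419 lower. The 12 of them with the largest difference each way were mostly low, small or repeated transcripts. None of these 24 passed. HBP1, which encodes an HMG-box repressor of cell cycle genes, came nearest. It was at 0.00, 0.94 and 0.21 TPM at 0.32 µM, against 2.15, 6.21 and 6.82 TPM untreated (log2 fold change −2.08, SE 0.36, limma adjusted p = 0.0739; 0.242 without untreated replicate 2). At the higher doses it averaged 5.79 ± 1.32 TPM (0.63 µM) and 8.30 ± 1.58 TPM (1.25 µM; SD, n = 3 each), and 1.25 µM against untreated did not pass (log2 fold change 0.71, limma adjusted p = 0.223).

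Other protein-coding genes with large differences were as follows. APLP1, of the amyloid precursor family, was at 0.00, 0.00 and 0.70 TPM at 0.32 µM, against 2.90, 5.51 and 10.4 TPM untreated. ABHD4, a lipase, was at 6.27, 10.2 and 6.29 TPM at 0.32 µM, against 1.3, 0.00 and 1.24 TPM untreated. FKBP11, a peptidyl-prolyl isomerase of the secretory pathway, was at 17.2, 39.0 and 19.3 TPM at 0.32 µM, against 13.2, 0.60 and 6.53 TPM untreated. The largest difference upward was in RNU6-611P, a U6 small nuclear RNA copy at 36.6, 29.8 and 18.3 TPM, against 0 in every untreated library, and the largest downward in SNORA63, at 0 in every treated library, against 26.5, 52.5 and 3.59 TPM untreated. Their limma adjusted p-values were 0.321 and 0.599.

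The size of the differences followed the level. The log2 fold change was at least 1 in either direction for 753 genes, of which 563 had means under 10 TPM in both groups and 26 reached 50 TPM. For 1772 of the 2160 genes at 50 TPM or more (82.0%) the 95% confidence interval lay within ±1 on the log2 scale, so a doubling or halving of those genes lay outside the interval. The median SE was 0.346 over all tested genes and 0.222 over those at 50 TPM or more.

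The kinases and adaptors that feed NF-κB had small estimated differences from untreated cells. All 20 measured members of that list lay within 0.5 of 0 on the log2 scale, none passed, none separated the groups and their median log2 fold change was −0.06. For 14 of the 20 the 95% confidence interval lay within ±1, and for the rest a doubling or halving was not excluded. IKBKB, the gene of the compound's named target, was at 7.04, 6.52 and 6.47 TPM at 0.32 µM, against 7.42, 5.14 and 16.7 TPM untreated (95% confidence interval of the log2 fold change −1.35 to 0.67). CHUK was at 4.28, 11.1 and 6.90 TPM, against 7.28, 5.01 and 10.1 TPM untreated, and IKBKG at 17, 17 and 9.66 TPM, against 14.5, 11.1 and 20.6 TPM. In all 3 genes the groups overlapped.

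Among the 12 NF-κB subunits and IκB-type inhibitors, none passed, and 3 were higher and 1 lower without overlap. The shares over all tested genes were 4.08% and 4.59%. The median log2 fold change of the list was 0.26 (0.11 without untreated replicate 2). The subunit genes RELA, REL, RELB and NFKB1 overlapped between groups, RELA with 18, 23.2 and 19.6 TPM at 0.32 µM, against 21.4, 14.5 and 20.4 TPM untreated. The subunit gene NFKB2 was lower in every treated library, at 2.60, 2.57 and 2.43 TPM, against 3.82, 3.03 and 3.16 TPM untreated (limma adjusted p = 0.918). NFKBID, which encodes the nuclear inhibitor-like protein IκBNS, was at 3.49, 2.80 and 3.69 TPM, against 0.89, 0.97 and 0.73 TPM untreated (log2 fold change 1.21, 95% confidence interval 0.54 to 1.88, limma adjusted p = 0.488). NFKBIE, which encodes the cytoplasmic inhibitor IκBε, was at 11.2, 4.85 and 4.48 TPM, against 1.37, 1.06 and 2.76 TPM untreated (log2 fold change 1.47, limma adjusted p = 0.619). Both genes were higher in every treated library. NFKBIA, which encodes the feedback inhibitor IκBα, was at 19.8, 15.8 and 16.1 TPM, against 23.8, 30.9 and 18.3 TPM untreated, with overlap.

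Of 32 listed NF-κB targets, 23 passed the floor and none passed the test. Their median log2 fold change was −0.01 (−0.05 without untreated replicate 2), and 2 had an unadjusted p under 0.05, both higher. CXCL1 alone of these 23 separated the groups, which 8.68% of all tested genes did. CXCL1, a neutrophil-attracting chemokine whose promoter is shown above, was at 41.1, 49.6 and 51.7 TPM at 0.32 µM, against 34.1, 36.3 and 31.0 TPM untreated (log2 fold change 0.48, 95% confidence interval 0.02 to 0.93, limma adjusted p = 0.797). The related CXCL3 was at 5.45, 3.90 and 1.56 TPM, against 1.69, 0.71 and 0.34 TPM. CXCL8 was at 2.5, 3.44 and 1.17 TPM, against 2.07, 4.18 and 2.63 TPM untreated, and the survival genes BIRC3 and BCL2L1 also overlapped. IL6 was below the floor. TNFAIP3, a preset gene not counted among these 23, was also higher in every treated library, at 1.25, 1.15 and 1.00 TPM, against 0.90, 0.38 and 0.62 TPM untreated (limma adjusted p = 0.910).

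CXCL1 and NFKBID, neither of which passed at 0.32 µM, had lower means at the higher doses. Both were among the smallest p-values of their lists at 0.32 µM, so a lower mean elsewhere is partly built into the choice. CXCL1 averaged 33.8 ± 2.68 TPM in untreated cells, 47.5 ± 5.58 TPM at 0.32 µM, 32.3 ± 8.35 TPM at 0.63 µM and 17.8 ± 4.16 TPM at 1.25 µM (SD, n = 3 each), and at 1.25 µM it fell by 0.91 on the log2 scale relative to untreated cells (limma adjusted p = 0.0115). NFKBID averaged 0.863 ± 0.122, 3.33 ± 0.467, 1.62 ± 1.11 and 0.930 ± 0.078 TPM over the same doses, with a log2 fold change of 0.05 at 1.25 µM relative to untreated cells (limma adjusted p = 0.949). For CXCL3 and TNFAIP3 the means at the higher doses were not lower than at 0.32 µM. CXCL3 averaged 0.913 ± 0.698, 3.64 ± 1.96, 5.20 ± 0.717 and 4.94 ± 2.63 TPM, and TNFAIP3 0.633, 1.13, 1.59 and 2.61 TPM over the same doses. Of 23 measured NF-κB targets, 3 rose and 2 fell at 1.25 µM relative to 0.32 µM, with a median of 0.37. Of all tested genes, 3.90% rose and 4.69% fell in that contrast.

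**Figure D2:**
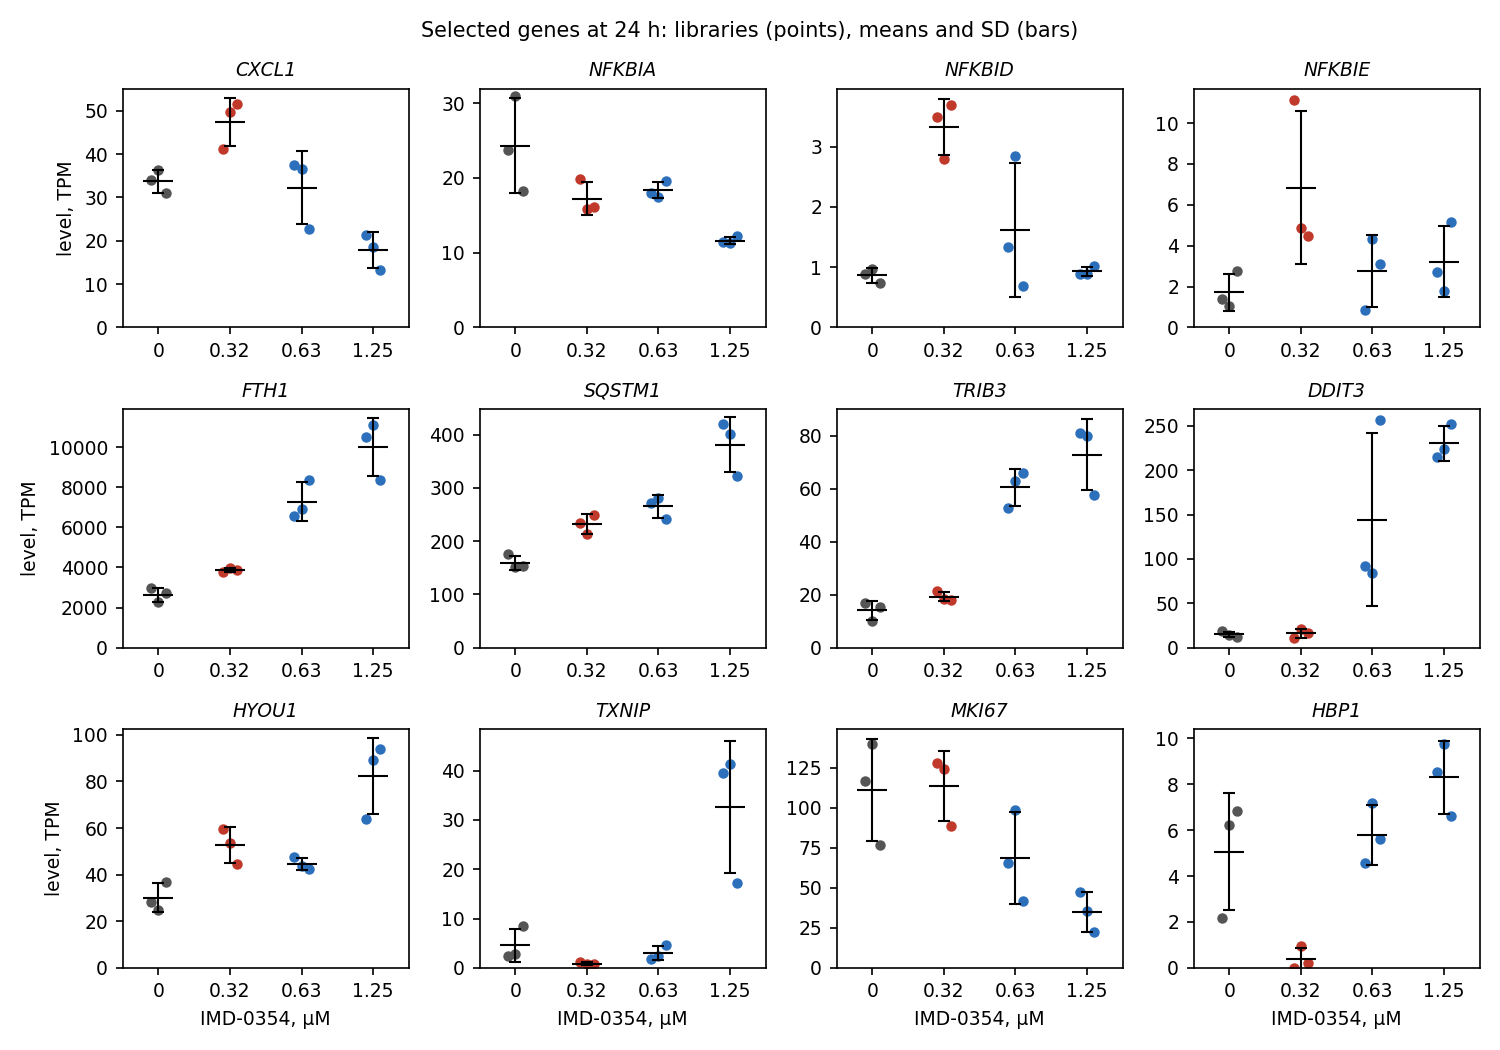
Levels in TPM of selected genes at 24 h against the dose of IMD-0354 in µM, with libraries as points and the mean and SD of each group of 3 as black bars. CXCL1, NFKBID and NFKBIE are highest at 0.32 µM, HBP1 and TXNIP lowest there, DDIT3 lies near its untreated level at 0.32 µM, and FTH1 and SQSTM1 are higher at each dose.

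The genes of iron storage and of the oxidative stress factor NRF2 had the highest median among the lists of nuclear genes. Of 27 measured NRF2 targets, 22 had a log2 fold change above 0, against 49.2% of all tested genes. Without overlap, 5 were higher and none lower, against 4.08% and 4.59% of all tested genes. None passed, and the median was 0.27, or 0.16 without untreated replicate 2. FTH1, the ferritin heavy chain, was at 3789, 3982 and 3880 TPM at 0.32 µM, against 2950, 2263 and 2717 TPM untreated. Its log2 fold change was 0.56 (SE 0.13, 95% confidence interval 0.28 to 0.84), and its limma adjusted p of 0.369 was the smallest of any of the 704 list genes. FTL, the ferritin light chain, was at 747, 744 and 732 TPM, against 599, 387 and 715 TPM untreated. Without untreated replicate 2 the log2 fold change was 0.46 for FTH1 and 0.18 for FTL.

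SQSTM1, which encodes the autophagy receptor p62, also separated the groups, with 234, 213 and 250 TPM at 0.32 µM, against 175, 151 and 153 TPM untreated (log2 fold change 0.54, limma adjusted p = 0.606; 0.50 without untreated replicate 2). The classical NRF2 reporters did not. NQO1 was at 127, 157 and 167 TPM, against 124.5, 147 and 148 TPM untreated, and HMOX1 at 2.33, 3.04 and 3.90 TPM, against 0.97, 4.63 and 1.69 TPM. FTH1 averaged 2643 ± 349 TPM untreated, 3884 ± 96.5 TPM at 0.32 µM, 7287 ± 969 TPM at 0.63 µM and 9992 ± 1443 TPM at 1.25 µM (SD, n = 3 each).

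Among 33 measured targets of ATF4, the transcription factor of the integrated stress response, none passed. Without overlap, 4 were higher and 2 lower, against 4.08% and 4.59% of all tested genes. The median log2 fold change of these targets was 0.07 (−0.05 without untreated replicate 2). PPP1R15A, which encodes the phosphatase subunit GADD34 that resets translation, was at 23.8, 29.7 and 30.4 TPM at 0.32 µM, against 23.0, 17.5 and 18.5 TPM untreated (log2 fold change 0.49, 95% confidence interval 0.11 to 0.87, limma adjusted p = 0.771). TRIB3, a pseudokinase that dampens the response, was at 21.3, 18.5 and 18.1 TPM, against 16.8, 9.91 and 15.4 TPM. DDIT3, the stress factor CHOP, was at 10.9, 21.4 and 16.1 TPM, against 18.4, 14 and 12.5 TPM untreated, with an interval of −0.68 to 0.83. GDF15, a secreted stress cytokine, was at 0.96, 3.93 and 5.08 TPM, against 2.90, 2.54 and 5.96 TPM untreated. CHAC1, a glutathione-degrading enzyme, had a log2 fold change of 1.57, which was 0.61 without untreated replicate 2, where it was at 0.16 TPM.

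Of 23 genes that respond to misfolded protein in the endoplasmic reticulum, 2 separated the groups and none passed. The groups were also separated for 8.68% of all tested genes, a share near that of this list. HYOU1, a chaperone of that compartment, was at 59.7, 53.8 and 44.4 TPM, against 28.4, 24.8 and 37.0 TPM untreated (log2 fold change 0.80, limma adjusted p = 0.687). XBP1, a transcription factor of the response, was at 18.8, 20.3 and 28.9 TPM, against 14.9, 8.44 and 14.7 TPM. The main chaperone gene HSPA5 was at 155, 156 and 160 TPM, against 172, 240 and 137 TPM untreated. Heat shock genes had the lowest median of all lists, −0.21, with 5 of 21 above 0; it was −0.03 without untreated replicate 2. DNAJB1, a co-chaperone of HSP70, was at 51.6, 53 and 51.0 TPM, against 62.5, 69.3 and 105 TPM untreated, and was 1 of 2 lower without overlap.

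**Figure D3:**
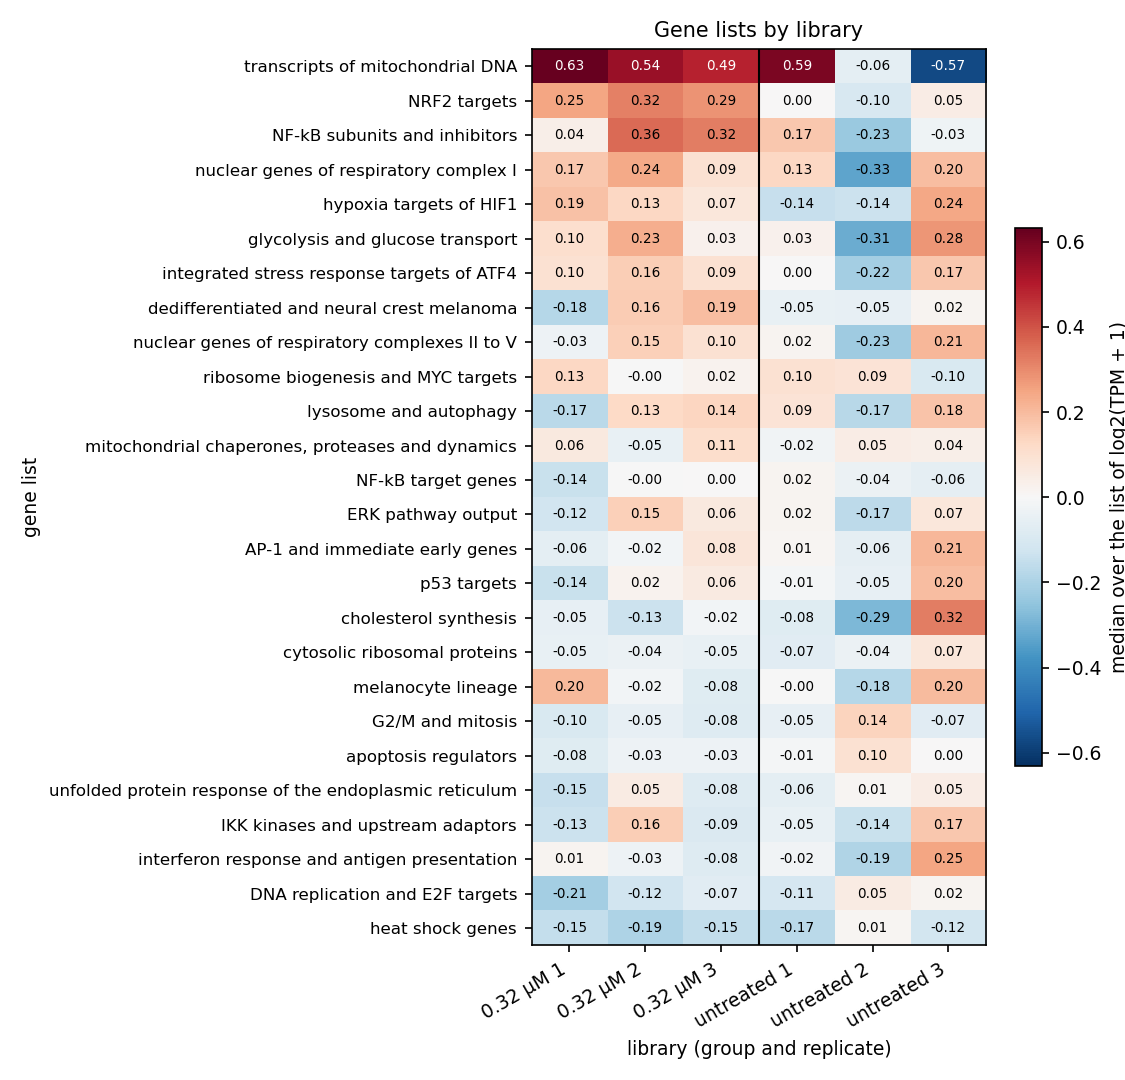
For each gene list (rows, highest to lowest median change) and library (columns, 0.32 µM left and untreated right), the colour and number give the median over the list of log2(TPM + 1) minus the gene's mean in untreated cells. Transcripts of mitochondrial DNA are at 0.49 to 0.63 at 0.32 µM and at −0.57 to 0.59 in untreated cells, and NRF2 targets at 0.25 to 0.32 against −0.10 to 0.05.

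Messenger RNAs made from mitochondrial DNA had the highest median log2 fold change of all lists, 0.46, which was 0.72 without untreated replicate 2. These 13 genes encode core subunits of the respiratory chain and of ATP synthase. All 13 lay above 0, 7 were higher without overlap, 6 were higher with an unadjusted p under 0.05 and none passed. Over all tested genes, 49.2% lay above 0, 4.08% were higher without overlap and 2.96% were higher with such a p. MT-ATP6, of ATP synthase, was at 6865, 6587 and 6348 TPM at 0.32 µM, against 4570, 2432 and 2495 TPM untreated (log2 fold change 1.12, 95% confidence interval 0.44 to 1.80, limma adjusted p = 0.600). MT-CO2, of cytochrome oxidase, was at 2781, 2963 and 2739 TPM, against 2237, 751 and 1308 TPM untreated (log2 fold change 1.12, limma adjusted p = 0.599; 0.72 on the log2 scale without untreated replicate 2). MT-ND1, of complex I, was at 1137, 1292 and 1201 TPM, against 1538, 802 and 612 TPM, and overlapped.

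The spread lay in the untreated cells. Together these messenger RNAs made up 5.30%, 5.08% and 5.02% of all TPM at 0.32 µM, against 4.54%, 3.09% and 2.30% in untreated cells, a mean of 5.13 ± 0.147% against 3.31 ± 1.13% (SD, n = 3 each). The 3 treated values lay above the 3 untreated ones, which in a two-sided exact permutation test gives p = 0.1, the smallest that 3 against 3 libraries allow. The 2 mitochondrial ribosomal RNAs made up 2.15 ± 0.0342% at 0.32 µM, against 1.49 ± 0.496% untreated (exact permutation p = 0.1). Leaving out any 1 of the 6 libraries kept the difference in messenger RNA share between 1.32 and 2.44 percentage points. Untreated replicate 1 was at 0.59 on the list scale, between the treated libraries. At 0.63 µM the share was not uniform either, since the list stood at 0.78, 0.82 and −0.60 in its 3 libraries. Replicate 3 had the lowest messenger RNA share in every group of the series, and the reason was not tested.

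**Figure D4:**
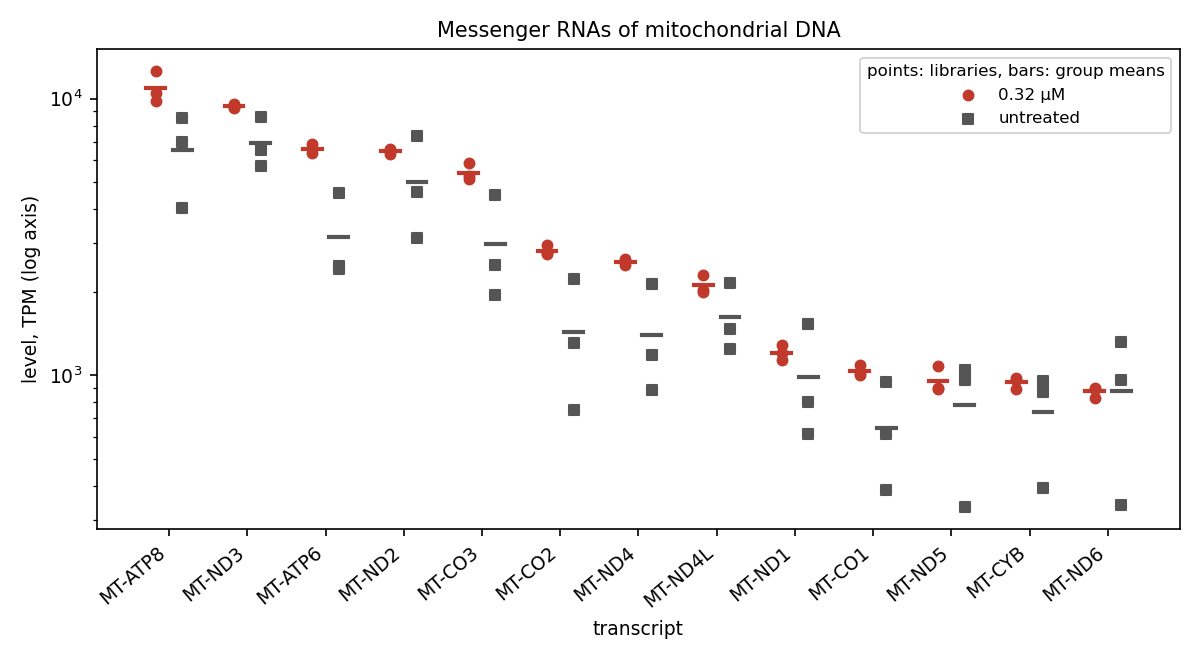
Levels in TPM (log axis) of the 13 messenger RNAs of mitochondrial DNA, with 0.32 µM (red circles) left of untreated (grey squares) for each gene, libraries as points and group means as bars. The treated libraries lie close together, and the untreated ones spread over a wider range that for 6 of the 13 genes reaches into or past the treated values.

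Nuclear genes of the respiratory chain had lower medians, a difference that was not tested. For complex I, 26 of 37 genes lay above 0 and the median was 0.16, and −0.05 without untreated replicate 2, in which NDUFA13, a subunit of that complex, was at 26.1 TPM. It was at 224, 218 and 170 TPM at 0.32 µM, against 172 and 211 TPM in the other untreated libraries. NDUFV2, of the NADH-binding part of complex I, was lower without overlap, at 119, 127 and 104 TPM, against 175, 163 and 164 TPM untreated (log2 fold change −0.52, limma adjusted p = 0.771). The median over 39 genes of complexes II to V was 0.04 (−0.05 without untreated replicate 2), and over 26 mitochondrial chaperones, proteases and dynamics genes 0.01 (0.09 without it).

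No gene of the cell cycle lists passed at 0.32 µM. The 95% confidence interval lay within ±1 on the log2 scale for 32 of 40 G2/M genes and 26 of 42 replication genes. For the rest, a doubling or halving was not excluded. Of 40 genes of G2/M and mitosis, 38 lay within 0.5 of 0 on the log2 scale, the median was −0.06 (−0.09 without untreated replicate 2), 3 were lower without overlap and none passed. CDK1, the mitotic kinase, was at 132, 188 and 176 TPM, against 167, 170 and 190 TPM untreated, and the proliferation marker MKI67 at 128, 124 and 88.3 TPM, against 116, 140 and 76.8 TPM. Of 42 DNA replication and E2F targets, 5 were lower and 1 higher without overlap, with a median of −0.15 (−0.10 without untreated replicate 2). Over all tested genes, 4.59% were lower and 4.08% higher without overlap. GINS4, a subunit of the replicative helicase, had the widest difference, with 3.08, 5.36 and 9.27 TPM, against 17.9, 17.3 and 26.6 TPM untreated (log2 fold change −1.72, 95% confidence interval −2.94 to −0.50, limma adjusted p = 0.742; −1.83 without untreated replicate 2). CDK2, the S-phase kinase, was at 50.8, 55.7 and 62.7 TPM, against 74.3, 67.5 and 84.3 TPM.

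Targets of p53 had a median of −0.04 over 24 genes (−0.14 without untreated replicate 2). MDM2, the ligase that degrades p53, was at 82.5, 88.4 and 93.4 TPM, against 107, 129 and 115 TPM untreated, and PHLDA3, an inhibitor of AKT, at 3.91, 3.61 and 3.60 TPM, against 7.46, 6.49 and 5.39 TPM. Both were lower in every treated library and neither passed (limma adjusted p = 0.832 and 0.777). CDKN1A, the cell cycle inhibitor p21, overlapped at 11.1, 14 and 16 TPM, against 15.3, 6.45 and 27.3 TPM. Apoptosis regulators had a median of −0.06 over 25 genes (0.01 without untreated replicate 2), with APAF1 and DIABLO, a scaffold and a mitochondrial activator of caspases, lower without overlap.

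The remaining lists held few separated genes. ERK pathway output had a median of −0.02 over 20 genes (−0.05 without untreated replicate 2), with DUSP6, a phosphatase induced by ERK, at 26.1, 27.1 and 27.6 TPM, against 27.0, 30.7 and 29.3 TPM untreated. AP-1 and immediate early genes had a median of −0.03 over 17 (−0.05 without it). In glycolysis, TXNIP, an inhibitor of thioredoxin and of glucose uptake, was at 1.14, 0.72 and 0.76 TPM, against 2.37, 2.75 and 8.47 TPM untreated (log2 fold change −1.40, limma adjusted p = 0.773).

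Cholesterol synthesis had 4 genes with an unadjusted p under 0.05, all lower, of 32, against 3.15% lower over all tested genes. Its median was −0.05 (−0.23 without untreated replicate 2), and 2 genes were lower without overlap. Among the 4, SREBF1, a transcription factor of lipid synthesis, was at 11.0, 13.9 and 19.5 TPM, against 21.6, 20.3 and 28.5 TPM. Of 34 ribosome biogenesis genes, 3 were higher and 1 lower without overlap, against 4.08% and 4.59% of all tested genes. Among the higher were WDR12 at 66.1, 74.4 and 76.1 TPM, against 48.7, 46.5 and 37.7 TPM, and its partner BOP1 at 18.6, 22 and 21 TPM, against 14.4, 5.02 and 15.8 TPM. Lysosome and autophagy genes had a median of 0.01 over 37 (−0.11 without untreated replicate 2), and 3 were higher and 3 lower without overlap. Interferon and antigen presentation genes had a median of −0.11 over 29 (−0.23 without untreated replicate 2), hypoxia targets 0.15 over 20, melanocyte lineage −0.05 over 10 (−0.14 without it), dedifferentiated and neural crest genes 0.05 over 24, and cytosolic ribosomal proteins −0.05 over 77, of which all lay within 0.5 of 0. KRT10, the 1 marker of another cell type above the floor, was at 41.6, 53.1 and 44.4 TPM, against 39.1, 43.6 and 44.9 TPM. The 27 lists together held 793 entries, of which 730 passed the floor, and no called gene.

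To show how far 0.32 µM lay from the highest dose, 1.25 µM was tested against 0.32 µM at 24 h in the same model. This contrast called 583 genes higher (3.90%) and 700 lower (4.69%) at 1.25 µM, 1283 in all (8.59%). It uses the same 0.32 µM libraries as the first contrast, so the values of the 2 are given only side by side. GDF15 was at 140, 138 and 246 TPM at 1.25 µM, against 0.96, 3.93 and 5.08 TPM at 0.32 µM (log2 fold change 5.44, limma adjusted p = 3.6e-05). IL24, a secreted cytokine of the IL-10 family, was at 256, 279 and 399 TPM at 1.25 µM, against 9.48, 10.3 and 13.0 TPM at 0.32 µM (4.69, limma adjusted p = 3.09e-06), and the 0.32 µM values stood beside 8.73, 3.08 and 6.94 TPM untreated. PPP1R15A rose by 2.97 on the log2 scale (limma adjusted p = 2.01e-07). TXNIP rose by 4.08 relative to 0.32 µM, where it was low, and by 2.68 relative to untreated cells (limma adjusted p = 0.000233 and 0.00427).

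At 1.25 µM, IRS1, an adaptor of the insulin receptor, fell to 1.42, 1.00 and 0.31 TPM, against 11.8, 19.9 and 16.4 TPM at 0.32 µM (log2 fold change −3.18, limma adjusted p = 0.000146). Of the G2/M list, 32 of 40 genes fell and none rose at 1.25 µM relative to 0.32 µM, with a median of −1.45. CDK1 was at 34.2, 31.5 and 15.1 TPM at 1.25 µM (log2 fold change −2.64, limma adjusted p = 5.84e-05). CAV1, the caveolae coat protein, averaged 65.5 ± 7.21 TPM at 1.25 µM and 232 ± 21.9 TPM at 0.32 µM (SD, n = 3 each). Of 33 ATF4 targets, 13 rose and none fell, with a median of 0.96, and of 27 NRF2 targets 2 rose and 3 fell, with a median of −0.04. Heat shock genes had 9 of 21 lower and a median of −0.54. The count of calls was 690 when the model held only the libraries compared, and 729 to 1014 when 1 library was left out. Rescaled without 4 very abundant transcripts of chromosome 21, 35.0% of the calls were higher, against 45.4% as first computed.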

How the data were processed

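The RNA came from A375 cells and was made into 3' end (QuantSeq forward) libraries, per the labels' protocols. The deposited table holds TPM for 60504 Ensembl identifiers in 18 libraries, as made by the authors; the submitters' processing notes name cutadapt 1.18, STAR 2.7, RSEM 1.3.1 and DESeq2 with no order or role. Neither a genome build nor an annotation is given in the sources used here. TPM divides by transcript length although 3' tags do not scale with it, so levels of different genes are not compared. TPM keeps no depth, so depth is unknown and no counting interval is given. A value of 0 can be a failed estimate.

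Symbols were matched for 56558 identifiers, and positions come from GENCODE 29 by identifier (56996 matched). The 14936 genes that reached 1 TPM in 3 or more of the 18 libraries were tested with limma 3.58.1 in R 4.3.3 on log2(TPM + 1), with group means over all 6 groups of 3 libraries, a mean-variance trend, and Benjamini-Hochberg adjusted p under 0.05 over all tested genes. The contrasts were 0.32 µM against untreated, 1.25 against 0.32 µM and, for 4 named genes, 1.25 µM against untreated, all at 24 h. Fold changes on this scale understate the change of low genes. The model was tested on simulated data for 0.32 µM against untreated, with changes planted in 100 genes per size. Only genes whose mean log2(TPM + 1) corresponded to over 5 TPM were given changes, so recovery in lower genes was not tested. The noise was normal and independent, with no library set apart. The model found 32% of the changes planted at a log2 size of 1 and 89% of those at 2. Of 130 calls, 9 were false. Real changes near a log2 size of 1 could therefore be missed. Shares of TPM were compared by two-sided exact permutation tests.

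Named genes were those called, the 12 largest non-overlapping differences each way at 5 TPM or more, the 3 smallest p-values of each list, a preset list of 48, and the 5 largest changes each way at 1.25 against 0.32 µM. Others printed are library checks or partners of called genes (EIF3A, TPM3), chosen after their values were seen. The members and lists were chosen with earlier results of these data known. Alternatives were other pseudocounts, filters, scalings and variance settings, a replicate block, library weights, the compared groups alone, each library left out and, chosen after seeing the data, rescaling without 4 abundant transcripts.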

Additional observations from a re-analysis of the deposited data

How the results depend on the processing

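For 0.32 µM against untreated, the count of 4 genes became 1 with a pseudocount of 0.1 TPM, 14 without a filter, 0 with a filter of 5 TPM (548 genes at an unadjusted p under 0.05 in limma), 11 without the mean-variance trend and 0 with the compared groups alone (648 unadjusted). It was 3 or 4 with the other pseudocount, scalings, robust prior and library weights, and 1 to 4 with 1 library left out: 1 without 0.32 µM replicate 1 and 2 without untreated replicate 3. HBP1 passed without the trend and without untreated replicate 1 (adjusted p = 0.00937). For 1.25 against 0.32 µM the count of 1283 became 690 with the compared groups alone, 729 to 1014 with 1 library left out (lowest without 1.25 µM replicate 3, and 755 and 828 without 0.32 µM replicates 1 and 3), and 1008 to 1496 otherwise; the cause was not tested. No pairing by replicate number was seen over all tested genes, where same-numbered libraries' deviations correlated at −0.012, −0.0927 and 0.0196 for 0.32 µM and untreated. Replicate 3 nevertheless had the lowest share of mitochondrial messenger RNAs in every group. Whether replicate numbers mark a batch was not tested. With a replicate block the counts were 3 and 1454. Of 2573 values of 144 named genes under these settings, 2552 stayed on their side of the threshold, 19 lost the call, 2 gained it and none reversed; 24 uncalled genes changed sign in at least 1 setting. Of 486 list medians, 464 moved by less than 1 SD. Over all settings the median of mitochondrial messenger RNAs ranged from 0.35 to 0.79 and that of NRF2 targets from 0.15 to 0.36. Depth is unknown, so no limit from it is given.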
